A study of Mus musculus with 4 samples.

Results

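The RNAs described here are 10 long noncoding RNAs of mouse cells that either stay in the nucleus or serve as hosts of small nucleolar RNAs (snoRNAs): *Malat1*, *Neat1*, *Miat*, *Gas5*, *Snhg1*, *Snhg3*, *Snhg5*, *Snhg6*, *Snhg12* and *Zfas1*. They were taken by gene symbol, and all 10 were found among the 53379 genes of the files. Each of the 10 also passed the expression filter, as did 19148 genes in all.

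The cells were DKO741, a single mouse embryonic stem cell line derived from E14 cells in which both copies of *Terc*, the gene for the RNA template of telomerase, were disrupted. All 4 libraries carry this *Terc*-/- genotype, and neither an unmodified line nor a second knock-out line was among them. The comparison was between cells at PD100 (100 population doublings, before the line maintained its telomeres by alternative lengthening, called pre-ALT) and cells at PD800 (800 population doublings, post-ALT), with 2 libraries each. The stem cells were kept on mouse embryonic fibroblast feeders, and feeder-free cells were taken for experiments. The labels name total RNA, whereas the paper speaks of mRNA sequencing, and the labels give the same 100 and 800 as passages.

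Long noncoding RNAs are transcribed and processed like messenger RNAs but are not known for a protein product. *Malat1* is one of the most abundant RNAs of the nucleus, where it lies in the nuclear speckles, and the long form of *Neat1* is the scaffold around which paraspeckles assemble. *Miat* is a nuclear RNA best known from the nervous system. The snoRNA hosts carry snoRNAs in their introns. After splicing, the introns are trimmed to snoRNAs that guide the methylation or pseudouridylation of ribosomal RNA, while the spliced host RNA is exported to the cytoplasm and, as is known for *Gas5*, can be degraded by nonsense-mediated decay when it is translated. Many host genes begin with a 5′ terminal oligopyrimidine tract, a C followed by further pyrimidines at the cap, which they share with the messengers of ribosomal proteins.

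The first 30 bases of 1 transcript of each host, and of the 3 nuclear RNAs, are shown because they show which of the genes have an annotated start with this feature. The sequences are those of GENCODE M21 (GRCm38), and capitals mark a run of at least 5 pyrimidines that begins with C at the first base. Where several transcripts of a gene had a tract, the most frequent start was taken.
Gas5: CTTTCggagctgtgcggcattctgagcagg
Snhg1: ctcatttttccttgttcggggtaagtactc
Snhg3: CTCTCTaggcgtcgctctcttggtgtgctt
Snhg5: CTTTTacgacggagcctaagatattctttg
Snhg6: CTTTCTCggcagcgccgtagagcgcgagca
Snhg12: CCTTTCTCgcttcatccgcggtccctgtct
Zfas1: CCTTTCgttccggcggctcctagagcgttt
Malat1: caggcattcaggcagcgagagcagagcagc
Neat1: aggagttagtgacaaggagggctcgctctt
Miat: CCCTTTgtgaggcgcgggagagatgtgcac

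At least 1 annotated transcript began with such a tract in 7 of the 10 genes, namely every host other than *Snhg1*, and *Miat*. Among the 19133 tested genes of the annotation the share was 8.62%, and among the 9711 tested genes with 4 to 30 annotated transcripts it was 13.5%. The tract was not found at every start of a gene: it was present in 5 of the 25 transcripts of *Gas5*, 3 of the 10 of *Snhg12*, and 1 transcript each of *Snhg3*, *Snhg5*, *Snhg6*, *Zfas1* and *Miat*. No transcript of *Malat1*, *Neat1* or *Snhg1* began in this way. Which annotated start was used in these cells was not analysed here.

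The 3′ ends of *Malat1* and long *Neat1* are shown for another reason. These RNAs are known to end without a conventional poly(A) tail, their ends being protected by a triple helix between U-rich stretches and an A-rich tract that the genome itself encodes. The windows are 100 bases long and end with the A-rich tract, and capitals mark that tract and 2 U-rich stretches before it (written with T), found as 3 or more T, a C and 4 or more T, and as 4 or more T, GC and 4 or more T.
Malat1: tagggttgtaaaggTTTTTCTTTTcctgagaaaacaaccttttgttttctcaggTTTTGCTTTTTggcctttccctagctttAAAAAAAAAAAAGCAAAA
Neat1: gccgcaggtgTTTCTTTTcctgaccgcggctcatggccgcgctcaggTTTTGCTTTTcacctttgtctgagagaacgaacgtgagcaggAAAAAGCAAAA

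In the annotated *Malat1* transcript of 6983 bases the tract ran from base 6674 to base 6691, with 292 annotated bases after it. In long *Neat1* it formed the last bases of the transcript, from 20761 to 20771. The letters searched for were 5 or more A followed by GCAAAA, on the transcript strand. They occurred in the last 400 bases of the longest transcript of 34 of the 18732 tested genes with a transcript that long, a share of 0.182%. Both T-rich stretches, in the order shown, occurred in the same window of 5 of these genes, a share of 0.0267%.

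The libraries held between 32454121 and 38492149 expected counts, which are RSEM's estimates of the read pairs from each gene. *Terc* itself was listed with 1 count in 1 of the PD100 libraries and with 0 in the remaining 3. A level is given in CPM, counts scaled to a common library total with edgeR's TMM factors, and 3 counts corresponded to between 0.0743 and 0.0934 CPM. PD100 replicate 2 stood apart in its mean fragment length, 148 bases against 162 to 170 in the other libraries. The labelled cell type was checked by its markers. The 10 pluripotency markers, among them *Nanog*, *Klf4* and *Esrrb*, summed to 1876 and 2225 CPM in the PD100 libraries and to 3754 and 3855 CPM in the PD800 libraries, and 5 of them rose and 1, *Dppa3*, fell. The 12 primitive endoderm markers summed to 2662 and 3082 CPM at PD100 and to 240 and 248 CPM at PD800, and 11 of the 12 fell. Fibroblast markers, chosen to look for feeder cells, summed to 97.1 and 124 CPM at PD100 and to 28.3 and 28.7 CPM at PD800. Of these 10 markers 6 fell, and *Lum*, the least abundant, was at 0 in 3 libraries and was not tested. The 8 neural markers summed to between 127 and 147 CPM in the 4 libraries, but of the 6 tested *Sox1*, *Pax6* and *Tubb3* rose, by 1.74, 1.53 and 1.25 on the log2 scale, and *Nes* fell by 1.88. Mitochondrial genes and small RNAs took 22.0% to 23.4% of the counts at PD100 and 27.7% to 28.3% at PD800. The part of the marker genes' cell types in the results was not tested. In bulk samples, fewer cells of a type and less RNA per cell cannot be told apart.

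Between PD100 and PD800, 5 of these 10 RNAs fell, each by less than 2-fold, and 1 rose. The values of all 7 snoRNA hosts, *Malat1* and *Neat1* were lower in both PD800 libraries than in both PD100 libraries, and the value of *Miat* was higher in both. Of all tested genes, 36.4% were lower without overlap and 37.4% were higher, and of the tested long noncoding genes 22.4% and 43.3% were. By edgeR's quasi-likelihood F test, adjusted over the 19148 genes by the Benjamini-Hochberg procedure, *Malat1*, *Gas5*, *Snhg1*, *Snhg6* and *Zfas1* fell at an adjusted p under 0.01, and *Miat* rose. These are 5 of 10 in the lower direction, where 15.4% of all tested genes and 3.84% of the 1691 tested long noncoding genes passed, and 1 of 10 in the higher direction, where 13.1% of all and 9.82% of long noncoding genes did. When a change over 2-fold was also required *Miat* alone passed, with 0 of the 10 called lower (of all tested genes 6.28% passed as higher and 8.81% as lower, of the long noncoding ones 8.57% and 2.9%). At an adjusted p under 0.05, 8 of the 10 were lower and 1 was higher, against 23.6% and 22.1% of all tested genes and 9.05% and 21.6% of the long noncoding ones. The median log2 fold change was -0.53 over the 10 RNAs, 0.01 over all tested genes and 0.22 over the tested long noncoding genes. Together the 10 RNAs took 0.454% and 0.484% of the counts of the PD100 libraries and 0.307% and 0.309% of those of the PD800 libraries.

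**Figure D1:**
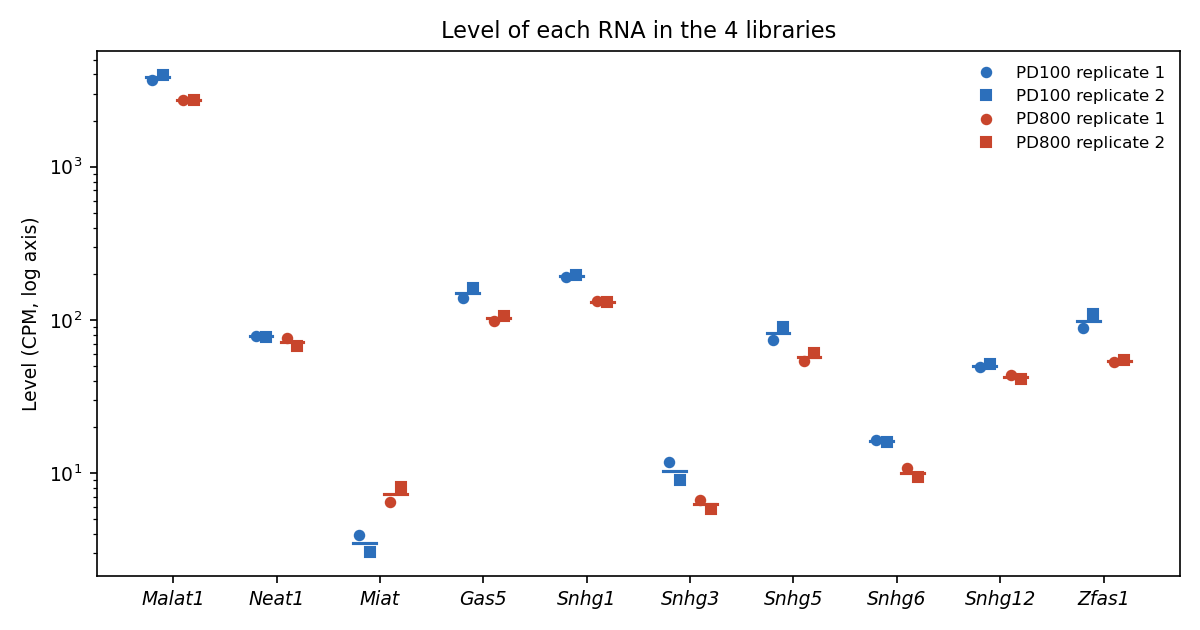
Level of each RNA in CPM (log axis) in the 4 libraries, PD100 in blue and PD800 in red, with circles for replicate 1, squares for replicate 2 and a short bar at the mean of each group (n = 2). *Malat1* lies between 2717 and 3992 CPM in the 4 libraries and *Miat* between 3.06 and 8.09 CPM, and *Miat* is the RNA whose red symbols lie above the blue ones.

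These calls depended on single libraries, since the p-values measure only the spread between 2 libraries of a line, described in the methods as biological duplicates. When either PD800 library was left out, the spread came from the PD100 pair alone, and 1 RNA was left as lower at an adjusted p under 0.01: *Snhg6* (0.00977) without PD800 replicate 1, and *Zfas1* (0.00783) without PD800 replicate 2. Of all tested genes, 1567 and 1651 were lower in these fits, against 2943 with all 4 libraries. Without PD100 replicate 1, 8 of the 10 RNAs and 4222 of all tested genes were lower, and without PD100 replicate 2, 7 of the 10 and 4223 of all were. In each of these edgeR fits the log2 fold changes of the same 9 RNAs stayed below 0, with a median over the 10 RNAs between -0.57 and -0.45.

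*Malat1* (ENSMUSG00000092341.2) lies on the minus strand at chr19:5795690-5802672 of GRCm38, by GENCODE M21. Its level was 3683 and 3992 CPM in the PD100 libraries and 2717 and 2730 CPM in the PD800 libraries. Both PD800 libraries lay below both PD100 libraries and differed from each other by less than the PD100 pair did. The mean of the PD100 libraries was 3837 ± 218 CPM (SD, n = 2) and that of the PD800 libraries 2723 ± 8.87 CPM (SD, n = 2), so that the level fell by 29.0%, or by 0.49 on the log2 scale (standard error, SE, 0.09, adjusted p = 0.00668 in edgeR). The adjusted p was 0.139 without PD800 replicate 1 and 0.158 without PD800 replicate 2, and ranged from 1.17e-07 to 0.0595 over the alternatives that kept all 4 libraries. *Malat1* alone accounted for 0.386% and 0.411% of all counts at PD100 and for 0.261% and 0.263% at PD800, so the summed share of the 10 RNAs is mainly its own.

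*Neat1* (ENSMUSG00000092274.2) lies 22036 bases away from *Malat1* on the same strand, at chr19:5824708-5845478. It was at 77.9 and 77.7 CPM in PD100 cells and at 76.0 and 67.7 CPM in PD800 cells. The groups did not overlap, but PD800 replicate 1 was close to both PD100 libraries. The log2 fold change of -0.12 (SE 0.08) did not pass the threshold (adjusted p = 0.311 in edgeR), and the adjusted p lay between 0.166 and 0.916 over all alternatives. Thus, the neighbours *Malat1* and *Neat1* had different results against the threshold, but the difference between them was not tested.

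*Miat* (ENSMUSG00000097767.8), at chr5:112213228-112229395 on the minus strand, was the least abundant of the 10 in TPM, and the one that rose. Its expected counts were 159 and 102 at PD100 and 234 and 260 at PD800, which correspond to 3.94 and 3.06 CPM and to 6.51 and 8.09 CPM. Both PD800 libraries were above both PD100 libraries. The mean of the PD100 libraries was 3.50 ± 0.624 CPM (SD, n = 2) and that of the PD800 libraries 7.30 ± 1.12 CPM (SD, n = 2). The fold change fitted by edgeR was 2.08, a log2 fold change of 1.05 (SE 0.19, adjusted p = 0.00593 in edgeR). It was below 2-fold without PD100 replicate 2 (log2 fold change 0.86, adjusted p = 0.000844 in edgeR) and without PD800 replicate 2 (0.90, adjusted p = 0.0280). In TPM, the libraries of *Miat* overlapped, with 0.61 and 0.25 at PD100 against 0.58 and 0.86 at PD800, and limma's test on log2(TPM + 0.1) gave 0.70 with an adjusted p of 0.236. The rise passed the test on the count scale only.

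Among the hosts, *Zfas1* (ENSMUSG00000074578.13, chr2:167062934-167065862, plus strand) had the lowest log2 fold change in the edgeR fit of all 4 libraries, whereas without PD100 replicate 2 that of *Snhg3* was lower (-0.93 against -0.74). It was at 88.4 and 109 CPM in the PD100 libraries and at 53.2 and 54.3 CPM in the PD800 libraries. The groups were far apart compared with the PD800 pair, and PD100 replicate 2 was the highest. Its level fell by 45.6%, a log2 fold change of -0.88 (SE 0.11, adjusted p = 0.00179 in edgeR), and it stayed under an adjusted p of 0.01 in each of the 9 alternatives with all 4 libraries. Without PD800 replicate 1 its adjusted p was 0.0112.

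*Snhg1* (ENSMUSG00000108414.1, chr19:8723475-8726443, plus strand) was the most abundant host. It was at 191 and 197 CPM in PD100 cells and at 133 and 130 CPM in PD800 cells. In both groups the duplicates were close to each other compared with the difference between groups. The level fell by 32.3% (log2 fold change -0.56, SE 0.07, adjusted p = 0.00161 in edgeR), with an adjusted p of 0.0337 and 0.0363 when PD800 replicate 1 or 2 was left out. *Gas5* (ENSMUSG00000053332.13, chr1:161034422-161038539, plus strand), first described as a transcript that accumulates in growth-arrested cells, was at 138 and 161 CPM at PD100 and at 98.8 and 106 CPM at PD800. Replicate 2 was the higher library in each group, and the groups did not overlap. *Gas5* fell by 31.4% (log2 fold change -0.54, SE 0.10, adjusted p = 0.00653 in edgeR), and the adjusted p was 0.0741 and 0.0327 without PD800 replicate 1 or 2.

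*Snhg6* (ENSMUSG00000098234.7, chr1:9941959-9944118, minus strand) was less abundant, with 16.5 and 16.0 CPM in PD100 cells and 10.7 and 9.40 CPM in PD800 cells. It fell by 38.1% (log2 fold change -0.69, SE 0.10, adjusted p = 0.00283 in edgeR), and without PD800 replicate 2 the adjusted p was 0.0270. Of the hosts that passed, it was the least abundant.

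The other 3 hosts were lower in both PD800 libraries without passing an adjusted p of 0.01. *Snhg3* (ENSMUSG00000085241.7, chr4:132348014-132353686, minus strand) was at 11.8 and 8.96 CPM at PD100 and at 6.70 and 5.82 CPM at PD800 (log2 fold change -0.73, SE 0.16, adjusted p = 0.0141 in edgeR). Its PD100 libraries differed from each other by more than the gap between the groups. *Snhg5* (ENSMUSG00000097195.9, chr9:88521050-88522929, minus strand) was at 73.6 and 89.8 CPM and at 54.1 and 60.7 CPM, respectively (log2 fold change -0.51, SE 0.12, adjusted p = 0.0160). DESeq2's Wald test gave both of them an adjusted p under 0.01, 0.00464 for *Snhg3* and 0.000855 for *Snhg5*. In edgeR with 1 library left out, the adjusted p reached 0.0642 for *Snhg3* (without PD800 replicate 2) and 0.133 for *Snhg5* (without PD800 replicate 1), and it lay under 0.01 for both RNAs when either PD100 library was left out. *Snhg12* (ENSMUSG00000086290.8, chr4:132308623-132311024, plus strand) differed least among the hosts, with 49.0 and 51.5 CPM against 43.5 and 41.1 CPM (log2 fold change -0.25, SE 0.08, adjusted p = 0.0452 in edgeR). The duplicates of *Snhg12* were close, and the groups still did not overlap. Its adjusted p was 0.0777 by DESeq2's Wald test and 0.0521 in edgeR with upper-quartile factors. The log2 fold change of *Snhg12* was -0.28 without PD800 replicate 1 and -0.20 without PD800 replicate 2.

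Levels of different genes were compared in TPM, the authors' unit per transcript length. In PD100 cells the order by mean TPM was *Malat1*, *Snhg1*, *Gas5*, *Zfas1*, *Snhg5*, *Snhg12*, *Snhg3*, *Snhg6*, *Neat1* and *Miat*, from 884 ± 201 to 0.43 ± 0.25 TPM (SD, n = 2). Neighbours in this order did not overlap between libraries, except for *Snhg3* (27.0 ± 4.54 TPM) and *Snhg6* (25.1 ± 3.61 TPM). In PD800 cells *Malat1* was at 547 ± 75.2 TPM, followed by *Snhg1* at 85.1 ± 8.33 TPM and *Gas5* at 68.3 ± 2.06 TPM. Then *Snhg5*, *Snhg12* and *Zfas1* followed, between 50.8 and 43.3 TPM, each overlapping with the next, so that *Zfas1* went from the fourth to the sixth place. *Neat1*, with 9.26 ± 0.672 TPM at PD100 and 8.16 ± 0.544 TPM at PD800, and *Miat* remained the lowest in both groups. As the sources differ on total RNA or mRNA, the places of *Malat1* and *Neat1* among the polyadenylated hosts may depend on how RNA without a poly(A) tail was captured, which was not tested.

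TPM also depends on the transcript length that RSEM assigns, an average over the annotated transcripts of a gene weighted by their estimated abundance. For *Malat1*, this length was 2957 and 3939 bases in the PD100 libraries and 3076 and 3524 bases in the PD800 libraries. Accordingly, the TPM of *Malat1* was 1025 in PD100 replicate 1 and 742 in replicate 2, whereas in CPM replicate 2 was the higher. In PD800 cells it was 600 and 494 TPM. The groups remained apart in TPM, but limma's test on log2(TPM + 1) gave *Malat1* a log2 fold change of -0.68 with an adjusted p of 0.0595. The weighted length of *Miat* varied most between replicates, with 5130 and 8758 bases at PD100 and 7421 and 5861 bases at PD800. For *Neat1*, which has a short and a long form, it was 7056 and 5777 bases and 5889 and 5459 bases, a mean change of -11.6% at PD800, but the groups overlapped. Of the 10 RNAs, 0 differed in this length by over 10% without overlap, whereas 12.7% of the 13295 tested genes with several transcripts did. Levels of single transcripts were not analysed here.

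**Figure D2:**
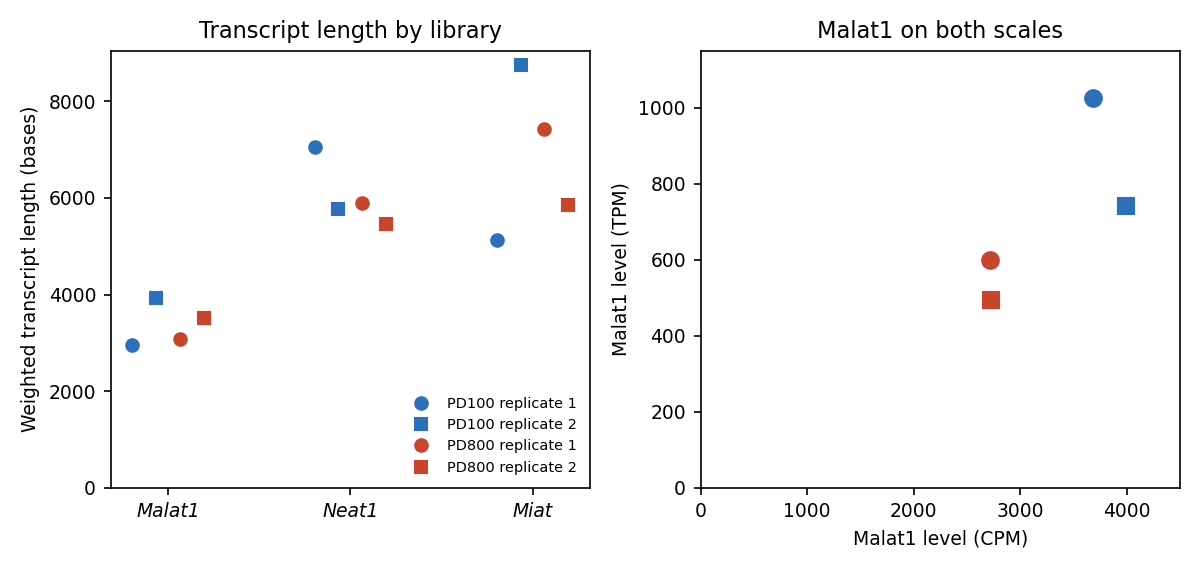
Left, the abundance-weighted transcript length in bases of *Malat1*, *Neat1* and *Miat* in the 4 libraries; right, the level of *Malat1* in TPM against its level in CPM, with 1 point per library. The length of *Malat1* is 2957 and 3939 bases in the PD100 duplicates, and their order in TPM is the opposite of that in CPM.

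Whether the changes were shared with surrounding genes was examined next, as each RNA has close or overlapping neighbours. The paper resolves RNA-seq reads of a telomeric region by transcription direction. Whether strand was used in the gene counts is not stated in the sources used here. Reads of overlapping genes on opposite strands may therefore be mixed in these counts. *Malat1* and *Neat1* lie in the same region, in which the 40 nearest tested genes of either had a median log2 fold change of -0.34, with 10 of the 40 lower and 0 higher at an adjusted p under 0.01. *Frmd8*, 4224 bases beyond *Neat1*, fell by 0.69 on the log2 scale (adjusted p = 0.00149 in edgeR). The difference from the median of the neighbourhood was -0.16 for *Malat1* and 0.22 for *Neat1*.

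The neighbourhood of *Snhg1* also had a median below 0, at -0.33, with 9 of its 40 nearest genes lower and 1 higher. *Slc3a2*, which encodes the heavy chain of amino acid transporters, starts 106 bases away on the opposite strand. It had counts of 5470 and 4739 at PD100 and 3187 and 3127 at PD800 and fell by 0.58 on the log2 scale (adjusted p = 0.00248 in edgeR), close to the -0.56 of *Snhg1*. *Wdr74*, 9384 bases away on the other side, fell by 0.64 (adjusted p = 0.00212).

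Around the other 7 RNAs the median of the 40 nearest genes lay between -0.02 and 0.14. The difference from this median on the log2 scale was 1.02 for *Miat*, -0.94 for *Zfas1*, -0.79 for *Snhg3*, -0.68 for *Snhg6*, -0.65 for *Snhg5*, -0.53 for *Gas5* and -0.31 for *Snhg12*. Some single neighbours moved in the same direction nevertheless. *Znfx1*, which overlaps *Zfas1* on the opposite strand, fell by 0.66 (adjusted p = 0.00102 in edgeR), and *Ddx27* on the other side was at 0.01. *Gm17300*, a noncoding gene that overlaps *Snhg3* on the opposite strand, fell by 0.79 (adjusted p = 0.00448), while *Rcc1*, which overlaps *Snhg3* on the same strand, was at -0.17 and did not pass (adjusted p = 0.143). *Zbtb37*, which overlaps *Gas5* on the opposite strand, was at -0.12 and did not pass (adjusted p = 0.456).

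*Snhg6* had neighbours with lower values on both sides. *Sgk3*, 41114 bases before it, fell by 1.17 on the log2 scale (adjusted p = 0.000605 in edgeR). *Mcmdc2*, which overlaps *Snhg6* on the opposite strand, was at -0.82 (adjusted p = 0.0141), and *Tcf24* on the other side was at -0.78 (adjusted p = 0.0244). In contrast, both tested neighbours of *Snhg5* had positive log2 fold changes, 0.23 for *Syncrip* and 0.21 for *Zfp949*, which did not pass. For *Snhg12*, *Taf12* rose by 0.40 (adjusted p = 0.00971) and *Trnau1ap*, 739 bases away, was at 0.12 (adjusted p = 0.429). Next to *Miat*, *E130006D01Rik* was at 1.31 (adjusted p = 0.0499) with at most 11 counts in any library, and *Tpst2* was at -0.34 (adjusted p = 0.0415).

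**Figure D3:**
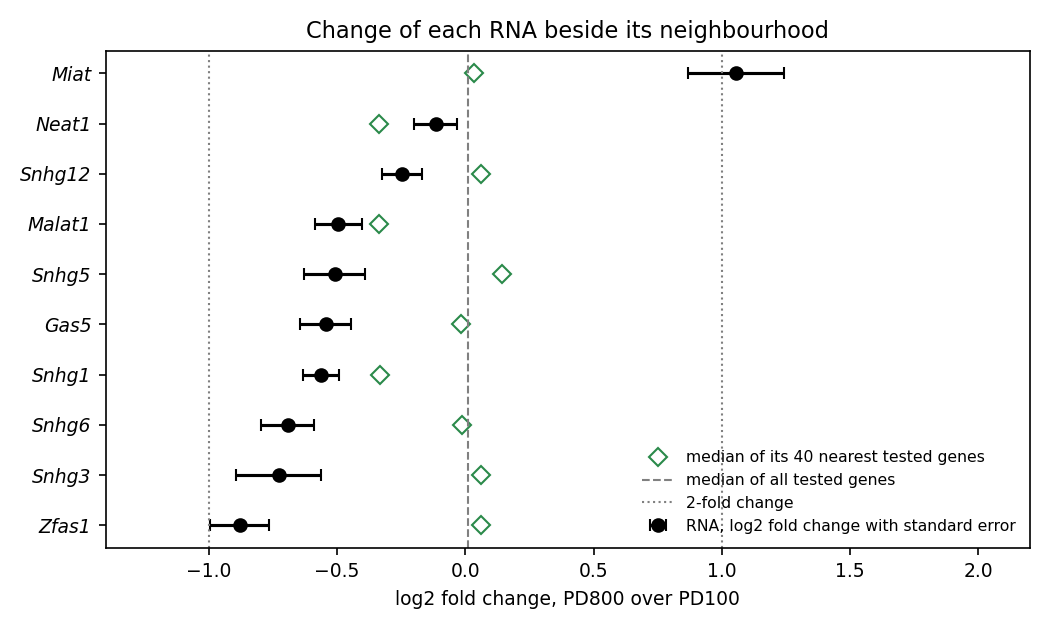
Log2 fold change (PD800 over PD100) of each RNA with its standard error (filled circles), beside the median of its 40 nearest tested genes (open diamonds), the median of all tested genes (dashed line) and 2-fold changes (dotted lines). *Miat* lies at 1.05 and the other 9 RNAs below 0, and the diamonds of *Malat1*, *Neat1* and *Snhg1* lie between -0.34 and -0.33.

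The products of the hosts, the snoRNAs, were then examined. GENCODE M21 places 31 snoRNA genes inside the 7 hosts on the same strand: 10 in *Gas5*, 8 in *Snhg1*, 5 in *Snhg12*, 3 in *Zfas1*, 2 each in *Snhg3* and *Snhg5* and 1 in *Snhg6*. *Snord47* of *Gas5* is shown as an example of the short kind that makes up most of them, with box C (TGATGA) and box D (CTGA), the letters bound by the snoRNP proteins, in capitals.
Snord47: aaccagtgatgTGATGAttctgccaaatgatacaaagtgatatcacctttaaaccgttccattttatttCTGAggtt

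These letters, TGATGA with CTGA after it on the transcript strand, were present in 69.9% of the 458 snoRNA transcripts under 100 bases and in 4.0% of the 1049 longer ones. *Snord47*, with 77 bases, had a count of 1 in PD800 replicate 2 and of 0 in the other libraries, while its host had between 3411 and 5567 counts. Of the 31 guests, 23 were at 0 in every library and 4 could be tested.

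The counts of the guests went with their length. Under 100 bases, 0 of the 24 guests reached 10 counts over the 4 libraries, as did 0 of all 462 annotated snoRNA and scaRNA genes of that length. Over 120 bases, 6 of 7 guests reached it, against 11.7% of 957 genes. All 10 guests of *Gas5*, between 60 and 84 bases, and those of *Snhg5*, *Snhg6* and *Zfas1*, up to 93 bases, belonged to this class, in which a count of 0 says only that no fragment was recorded. The mean fragment was between 148 and 170 bases, and by the paper's methods each single read was longer than any gene under 100 bases. Of the 139 annotated genes of 100 to 120 bases, 0 reached 10 counts either.

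**Figure D4:**
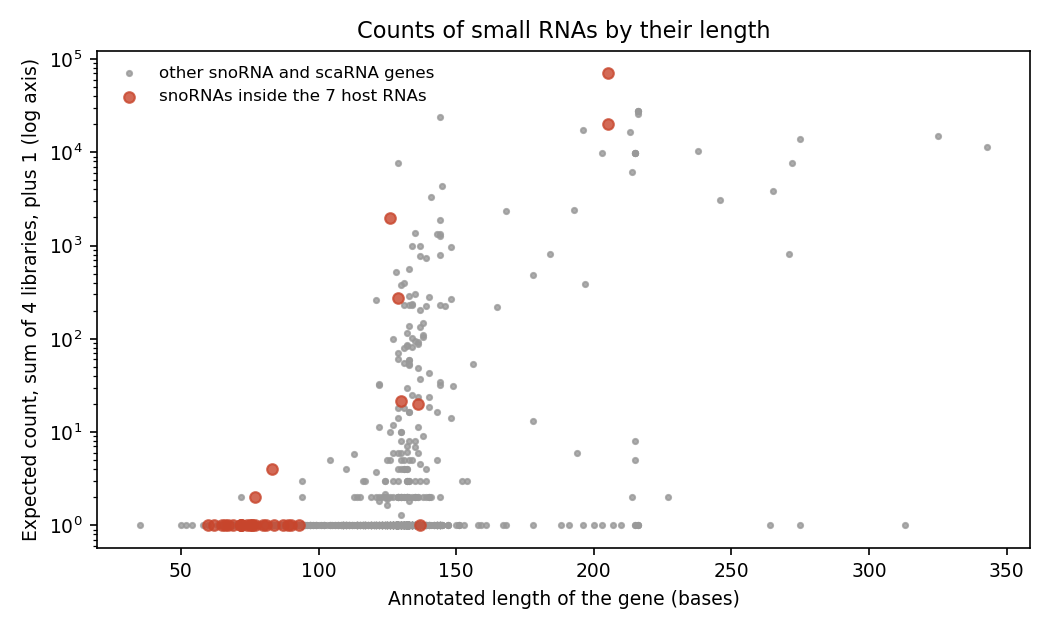
Expected count summed over the 4 libraries, plus 1 (log axis), of annotated snoRNA and scaRNA genes up to 350 bases against their length in bases. Red points are the 31 snoRNAs inside the 7 hosts, of which the 24 under 100 bases lie at the bottom with fewer than 10 counts.

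The 4 tested guests did not pass the threshold. *Snora73a*, one of 2 long snoRNAs inside *Snhg3*, was at 437 and 695 CPM in PD100 cells and at 432 and 432 CPM in PD800 cells (log2 fold change -0.39, SE 0.21, adjusted p = 0.178 in edgeR). *Snora73b*, the other, was at 102 and 236 CPM and at 109 and 134 CPM, respectively (log2 fold change -0.47, SE 0.36, adjusted p = 0.333). *Snord22* of *Snhg1* was at 12.0 and 20.1 CPM and at 10.8 and 13.6 CPM (log2 fold change -0.40, SE 0.25, adjusted p = 0.250). In these 3, PD100 replicate 2, the library with the shortest fragments, was the highest and the other 3 libraries were closer to each other. The part of fragment length in this was not tested. *Snora44* of *Snhg12* was at 1.71 and 1.83 CPM and at 1.86 and 2.30 CPM (log2 fold change 0.23, SE 0.21, adjusted p = 0.406). Reads of a guest and of its unspliced host cannot be told apart by these counts. Values of host and guest could be set side by side for 3 of the 7 hosts. *Rcc1*, which overlaps *Snhg3* on the same strand, also holds a snoRNA by the annotation. Which of these genes *Snora73a* and *Snora73b* came from was not analysed.

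Other snoRNA host genes were compared next. Of 16 tested genes on a list of other noncoding snoRNA hosts chosen by name, 1 rose and 1 fell at an adjusted p under 0.01, with a median log2 fold change of -0.02. By GENCODE M21 the list is not made of such hosts alone. *Mir17hg*, *Gm12940*, *Snhg4*, *Snhg7* and 1 *Dancr* identifier were not among the long noncoding or protein-coding genes with a snoRNA on their strand. *Snhg11* is annotated there as protein-coding. *Rian*, an imprinted host of many snoRNAs, rose from 267 and 238 CPM to 1085 and 1043 CPM (log2 fold change 2.07, adjusted p = 6.95e-05 in edgeR). *Dancr*, which is listed under 2 identifiers, fell under one of them, from 18.3 and 18.6 CPM to 10.8 and 9.40 CPM (log2 fold change -0.87, adjusted p = 0.00122), and was at -0.28 under the other (adjusted p = 0.219). Taking instead every other long noncoding gene that holds a snoRNA on its strand, 25 of 58 were tested, 4 rose and 3 fell, with a median of 0.16. *2410006H16Rik* fell by 1.35 on the log2 scale (adjusted p = 0.000193) and *Gm26945* rose by 1.94 (adjusted p = 7.70e-05). Of 250 tested protein-coding hosts, 34 rose and 37 fell, and their median was 0.01. Gene kinds were those of the annotation, which puts *Snhg11* among these 250 and an entry named *Cct6a* among the long noncoding hosts. By comparison, 4 of the 7 hosts described here fell and their median was -0.56, but a difference between the lists was not tested.

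For proteins that act with these RNAs, the RNA of their genes was measured here, not the protein. Most of these genes did not pass the test, and those that did moved in both directions. Of 19 genes for snoRNP proteins and assembly factors, 5 fell and 0 rose, with a median of -0.12. *Naf1*, an assembly factor of box H/ACA particles, fell from 49.6 and 45.8 CPM to 24.6 and 24.3 CPM (log2 fold change -0.96, adjusted p = 0.000362 in edgeR). *Znhit6*, an assembly factor of box C/D particles, fell by 0.68 (adjusted p = 0.00308), the nucleolar chaperone *Nolc1* by 0.66 (adjusted p = 0.00136) and *Nhp2*, a core protein of H/ACA particles, by 0.55 (adjusted p = 0.00279). The genes of the core proteins of C/D particles, *Fbl*, *Nop56* and *Nop58*, at -0.04, -0.18 and 0.14, did not pass.

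Of 19 genes for factors of nonsense-mediated decay and of the mRNA decay that follows it, 2 rose and 1 fell, with a median of 0.05. The decapping enzyme gene *Dcp2* rose from 140 and 137 CPM to 279 and 279 CPM (log2 fold change 1.01, adjusted p = 0.000213 in edgeR), and *Pnrc2*, which links decapping to decay, rose by 0.76 (adjusted p = 0.000634). *Casc3*, a component of the exon junction complex, fell by 0.68 (adjusted p = 0.000853). *Upf1*, the central helicase of the pathway, was at -0.30 and did not pass (adjusted p = 0.0161).

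Of 21 genes for paraspeckle proteins, 4 rose and 2 fell, with a median of 0.10. *Sfpq*, *Nono* and *Pspc1*, which bind *Neat1* directly, were at 0.10, 0.22 and 0.01 and did not pass. *Cpsf6*, a subunit of a complex in 3′ end processing, rose by 0.95 on the log2 scale (adjusted p = 0.000822 in edgeR), whereas *Fam98a* fell by 1.05 (adjusted p = 0.000932) and *Hnrnph3* by 0.96 (adjusted p = 0.000853). Of 23 genes for nuclear speckle and splicing proteins, 4 rose and 0 fell, with a median of 0.01. These were *Qk*, known to bind RNA in splicing, by 1.03 (adjusted p = 0.000680), the splicing factors *Srsf5* by 0.87 (adjusted p = 0.00221) and *Srsf6* by 0.38 (adjusted p = 0.00890), and *Pnisr* by 0.80 (adjusted p = 0.000955). *Son* and *Srrm2*, the scaffold proteins of speckles, were at -0.09 and -0.25 and did not pass.

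**Figure D5:**
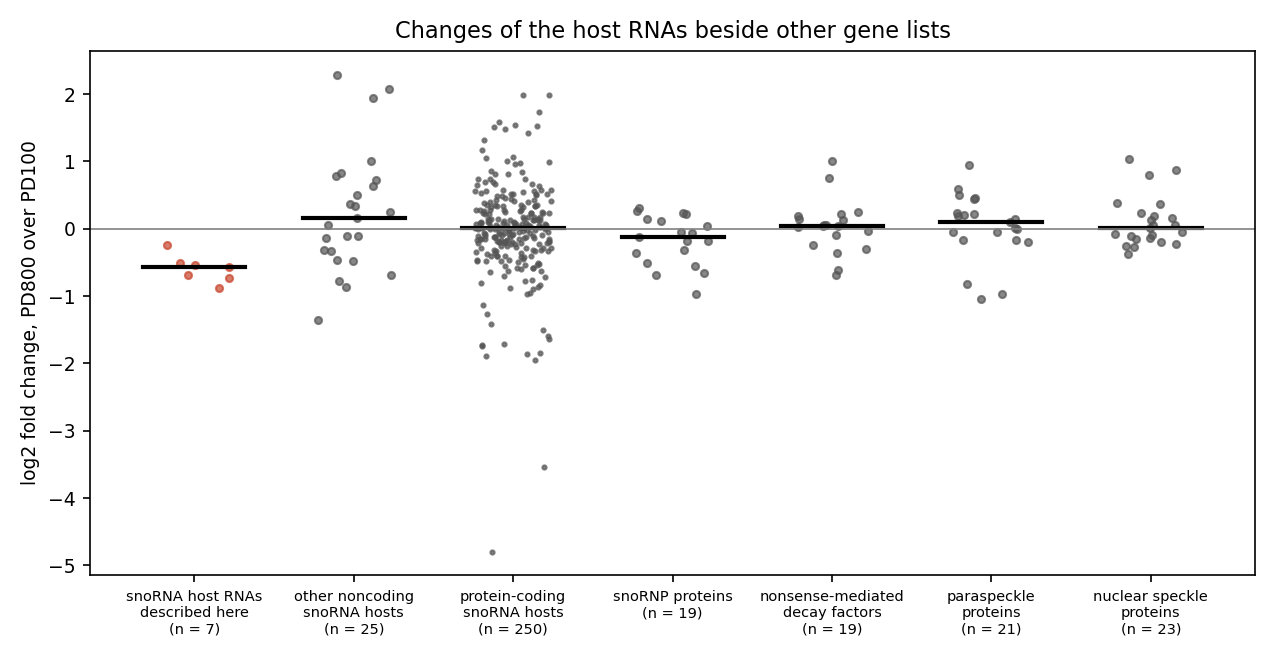
Log2 fold change (PD800 over PD100) of each tested gene of 7 lists, 1 point per gene, with black bars at the medians and n giving the number of tested genes. The 7 hosts described here lie between -0.88 and -0.25, whereas the 25 other noncoding hosts lie between -1.35 and 2.29.

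The lower values of these RNAs were also compared under other scalings. With mitochondrial genes and small RNAs left out before scaling, the median log2 fold change of the 10 RNAs was -0.54 and that of all genes was 0.00, and 5 of the 10, and 3112 of all 18894 tested genes, were lower at an adjusted p under 0.01 in edgeR. On the log2(TPM + 1) scale the median of all genes was -0.12 and that of the 10 RNAs was -0.70. Here 3 of them, and 2327 of all 19148 tested genes, were lower by limma's test at an adjusted p under 0.01: *Gas5* (adjusted p = 0.00489), *Snhg5* (0.00647) and *Zfas1* (0.00336).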

How the data were processed

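RNA of 2 PD100 and 2 PD800 cultures was sequenced. The authors aligned paired-end reads with STAR 2.5.3a and deposited RSEM 1.3.0 expected counts per gene, which are unscaled and share out multi-mapping reads. TPM values, scaled for length, and the weighted transcript length in bases come from the same RSEM files the authors deposited. The submitters' processing notes also name DESeq2 1.18.1. The annotation release and strand setting are not given in the sources used here. GENCODE M21 held 53274 of the 53379 genes, 50604 with the same version, and gave coordinates, gene kinds, snoRNAs inside hosts and transcript sequences. No RefSeq sequence was used.

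Expected counts were rounded and fitted by group with edgeR 4.0.16 under R 4.3.3 (minimum count of 10 in filterByExpr, TMM, quasi-likelihood test, Benjamini-Hochberg over 19148 genes). Tests were two-sided, and the procedure was tested on simulated data. With 2 libraries against 2, an exact permutation test cannot go below p = 0.333. The members, gene lists and tests were chosen with earlier results of these data known. Named genes are all members, *Terc*, up to 4 passing genes per list with the largest change and a mean of at least 5 CPM, tested snoRNAs, and overlapping or nearest tested genes. Core genes of a pathway that did not pass, the other *Dancr* identifier and *Lum* were added after their values were seen. Some genes that the rule names are not reported here. Alternatives were DESeq2 1.42.0, other scalings and filters, a replicate block, limma 3.58.1 on TPM values with a pseudocount of 1 or 0.1, other length thresholds, and each library left out.

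Total expected counts ranged from 32454121 to 38492149. Replicates correlated at 0.984 (PD100) and 0.992 (PD800) in log2 CPM, and their counts differed by more than sampling noise (chi-square per degree of freedom 64.6 and 9.89). Floors cover counting error only. *Malat1*, *Gas5*, *Snhg6* and *Zfas1* had whole counts in all libraries, whereas counts of the other 6 RNAs included divided reads.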

Additional observations from a re-analysis of the deposited data

How the results depend on the processing

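The log2 fold changes of the 10 RNAs kept their signs under all 13 alternatives. At an adjusted p under 0.01 and over 2-fold, *Miat* was the 1 RNA called higher, and limma on TPM with a pseudocount of 1 or 0.1 gave 0 higher and 1 lower (*Zfas1*); at the adjusted p alone both gave 0 higher and 3 lower. Of all tested genes, edgeR called 1202 higher and 1686 lower over 2-fold, against 297 and 920 by limma with the pseudocount of 1 and 533 and 1779 with 0.1. At the adjusted p alone, limma called 712 and 706 genes higher and 2327 and 2410 lower, against 2513 and 2943 in edgeR. Without a filter, 3991 genes were higher at the adjusted p alone. With each library left out in turn, between 0 and 1 of the 10 were higher and between 0 and 1 lower over 2-fold, and between 0 and 1 higher and between 1 and 8 lower at the adjusted p alone; of all genes, 924 to 1526 were higher and 1316 to 1872 lower over 2-fold, and 1257 to 4079 higher and 1567 to 4223 lower at the adjusted p alone. The number of lower RNAs fell to 1 without either PD800 library. In those fits the lone sample is assumed to vary like the other group. The cause of the other differences was not tested.

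The labels number the replicates of both groups 1 and 2, but these share only a number. Deviations of same-numbered libraries correlated at 0.265 across genes, which with 2 pairs does not establish a pairing. With the replicate number as a block, 1 of the 10 RNAs was higher and 7 were lower at the adjusted p alone, and of all genes 3854 were higher and 4125 lower.

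Counting depth was lowest for *Miat* at PD100, with 102 counts in replicate 2, and for *Snhg3* at PD800, with 187 counts in replicate 2.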

Other observations

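Further long noncoding RNAs outside the 10 were measured in the same libraries. Of 18 tested RNAs on a list of well-known ones, 4 rose and 5 fell at an adjusted p under 0.01 in edgeR, with a median log2 fold change of 0.06. The imprinted *H19* was at 230 and 188 CPM in the PD100 libraries and at 3.81 and 4.67 CPM in the PD800 libraries and fell by 5.62 on the log2 scale (standard error, SE, 0.16, adjusted p = 3.11e-05). *Meg3*, which is imprinted in the same cluster as *Rian*, rose from 107 and 81.6 CPM to 428 and 374 CPM (log2 fold change 2.09, SE 0.15, adjusted p = 0.000233). *Mir124a-1hg*, the host of a neural microRNA, rose from 3.89 and 3.18 CPM to 14.7 and 13.2 CPM (log2 fold change 1.98, SE 0.14, adjusted p = 0.000202). *Lncenc1*, known from embryonic stem cells, fell from 126 and 90.2 CPM to 47.3 and 45.1 CPM (log2 fold change -1.22, SE 0.16, adjusted p = 0.00177). In all 4 the libraries of the groups did not overlap.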
